A study of Mus musculus with 4 samples.

Results

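B6 thymocytes of Rag1-/- mice were compared between 7 and 4 weeks of age, with 1 RNA-seq library at each age, chosen by strain and age as labelled, which makes 2 of the 4 libraries in the series. Both libraries came from the C57BL/6 strain on a Rag1-/- background. The other 2, from NOD Rag1-/- thymocytes at 4 and 6.5 weeks, serve here only as a second age comparison that shares no library with the B6 one. The cells were sorted by flow cytometry and their polyadenylated RNA was sequenced. The labels name neither the surface markers of the sort nor the Rag1 allele, and do not say if RNA came from a single mouse or from several. With 1 library per age there was no replicate check, so each difference below lies between libraries and carries no p-value.

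Rag1 is needed to assemble antigen receptor genes, and thymocytes that lack it stop at the double negative stage, before a pre-T-cell receptor can form. The normal passage beyond that stage is coupled to a burst of cell division. Replication genes are largely driven by E2F factors in late G1 and S phase. Mitotic genes follow a later programme that acts through cell cycle homology region (CHR) elements. Both groups are therefore widely read as a measure of how much a population divides. Interferon response genes, which many cells keep on at a low level without infection, are driven through interferon-stimulated response elements (ISRE).

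The B6 libraries carried the markers of their label. Cd3g, which encodes a CD3 chain, was at 1493 RPKM (reads divided by gene length and by library size) at week 4 and 1490.1 at week 7. Il2ra, the interleukin-2 receptor alpha chain gene of the double negative stage, was at 461 and 422, and Dntt, which encodes terminal transferase, at 793 and 749.6. The coreceptor gene Cd4 was at 1.25 and 0.63, and Cd8a at 0.06 and 0.03. Of other lineages, the B-cell genes Ms4a1 and Pax5, the monocyte gene Cd14, the NK gene Eomes and the thymic epithelial gene Foxn1 were listed at 0 in both B6 libraries. Other members of those lists were detected: the B-cell gene Cd79b was at 37.4 RPKM at week 4 and 27.0 at week 7, the myeloid gene Lyzs at 23.7 and 21.3, the dendritic list's Ly6d at 358 and 309.5, the granzyme gene Gzma of the NK list at 86.4 and 85.3, and the epithelial gene Tacstd1 at 34.2 and 23.99. The summed RPKM at week 4 and 7 was 78.8 and 58.8 for 13 B-cell markers, 37.2 and 29.7 for 19 myeloid, 489.7 and 404 for 16 dendritic cell, 168 and 148 for 19 NK and innate lymphoid, and 75.6 and 53.8 for 21 thymic stroma markers. The summed RPKM of 14 erythroid and platelet markers was 46.9 at week 4 and 15.4 at week 7, most of it from the globin genes Hba-a1 and Hbb-b1, and the part of any of these markers in the results below was not tested. Rag1 RNA was at 132.9 and 108 RPKM, which checks no label while the deleted stretch is unknown.

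The week 7 library was lower over most genes and stood apart in its composition. Among 8582 genes that reached RPKM 5 in either B6 library, the median ratio of week 7 to week 4 was 0.769 as deposited, a log2 of -0.38, and 83.7% of the genes were lower. Depth recovered from the steps of the RPKM values was 17060000 reads at week 4 and 21250000 at week 7. The listed genes and regions took 67.0% of that depth at week 4 and 52.6% at week 7, against 63.4% and 61.4% in the NOD libraries. A single unnamed locus, LOC672857, took 3.97% of the listed reads at week 7 and 1.19% at week 4, at 2382 and 914 RPKM. Unless said otherwise, ratios below are log2 of (RPKM + 1) at week 7 over (RPKM + 1) at week 4 with the median of these genes set to 0, and are called rescaled.

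The ratio also followed base composition. Genes whose longest transcript had at most 40% GC had a median rescaled ratio of 0.47 in B6 and those above 60% GC one of -0.44. The same bins stood at -0.0048 and -0.13 in NOD. Across 7654 genes with a GC value, Spearman's rho of the ratio with GC was -0.73 in B6, and -0.22 across 7695 genes in NOD. These are correlations across genes of the same 2 libraries, which are not independent replicates. Gene groups are therefore also given after removal of the smooth trend with GC and length, as the distance of their genes from that trend. Whether the trend arose in the cells or in the libraries was not tested.

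**Figure D1:**
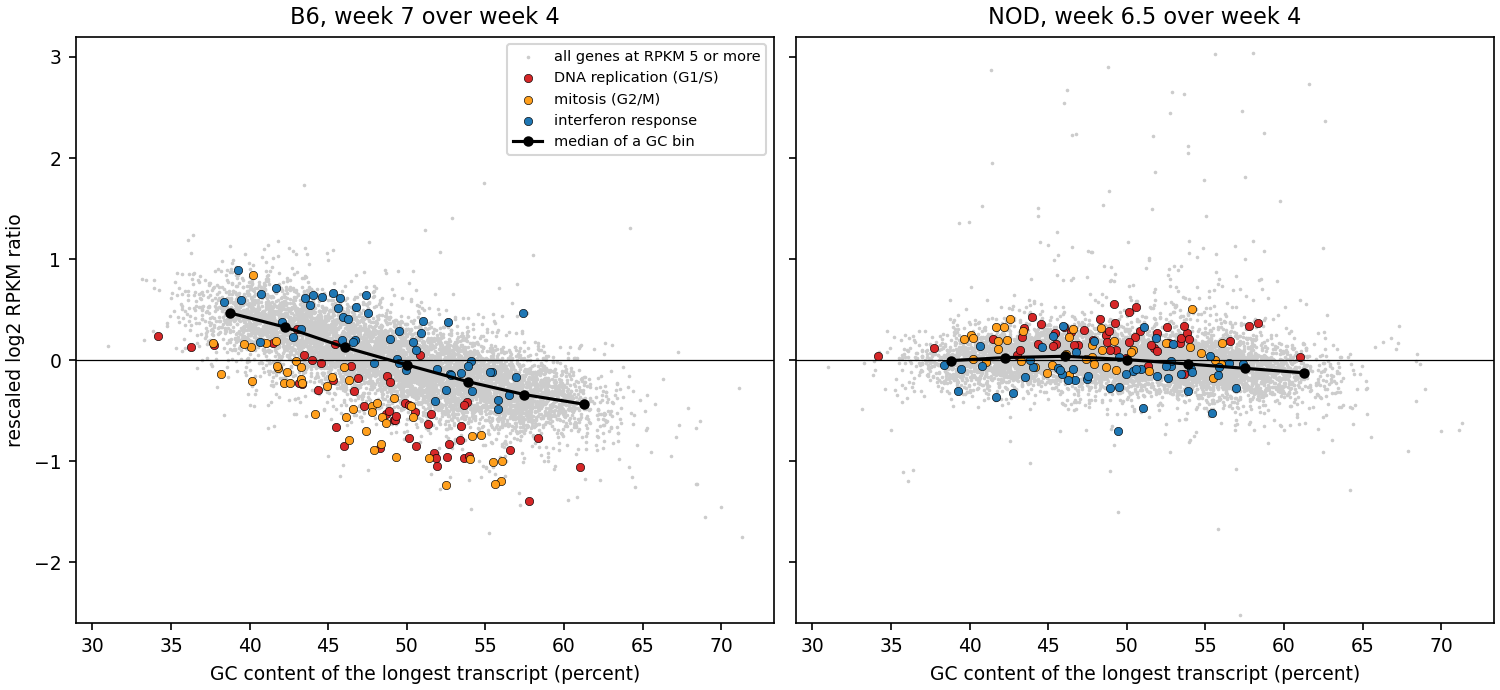
Rescaled log2 RPKM ratio (y axis) against the GC content of the longest transcript (x axis, percent) for B6 (left) and NOD (right). Each grey point is a gene reaching RPKM 5 in either library, coloured points are members of the named lists, and the black line joins the medians of GC bins; 2 NOD genes lie beyond the axis. In B6 the bin medians run from 0.47 down to -0.44, and most replication and mitosis genes lie below the line.

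Genes of DNA replication and of mitosis were lower at week 7 in B6. Of 50 G1/S genes at RPKM 5 or more, 42 had a rescaled ratio below 0, where 50% of all genes did, and their median was -0.51. Of 46 G2/M genes, 40 were below 0 and the median was -0.44. As deposited, the medians were -0.89 and -0.82. After removal of the GC and length trend, 47 of 50 and 45 of 46 lay below the trend, again against 50% of all genes, with medians of -0.49 and -0.53, and the mitotic exception was the condensin gene Smc4. In bulk RNA, fewer dividing cells and less of these RNAs per cell cannot be told apart.

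Licensing factors mark origins of replication and load the helicase. Cdt1, the loader, was at 32.8 RPKM at week 4 and 8.92 at week 7 in B6, and at 23.5 and 28.7 in NOD at week 4 and 6.5. The B6 week 7 value stood alone as the low one among the 4 libraries. Its deposited B6 ratio was 0.272 (95% interval 0.242 to 0.304, counting error only), to be read against the 0.769 of the median gene, and its rescaled ratio was -1.39. Cdc6, which recruits Cdt1 to origins, was at 10.3 and 4.77 in B6 and 7.76 and 11.4 in NOD. The helicase subunit genes were low at week 7 together: Mcm2 was at 77.2 and 30.8, Mcm3 at 77.7 and 30.1, Mcm4 at 52.8 and 25.1, Mcm5 at 69.5 and 25.2, Mcm6 at 145 and 81.2 and Mcm7 at 127.4 and 56.05, in B6 at week 4 and 7. In NOD each of the 6 was higher at week 6.5 than at week 4 as deposited, for example Mcm5 at 64.1 against 55.1.

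Polymerases, the clamp and the nucleotide supply differed among themselves. Pold1, the catalytic subunit of the lagging strand polymerase delta, was at 41.1 RPKM and 14.6 in B6 and at 41.8 and 40.9 in NOD. Pole, the polymerase epsilon gene, was at 11.9 and 4.49 in B6, while Pola1, of the priming polymerase alpha, was at 13.5 and 11.5. Pcna, the sliding clamp gene, was at 231 and 154 in B6 with up to 69% of its reads shared with other places in the genome, so its value is uncertain. Lig1, the ligase that seals Okazaki fragments, was at 42.4 and 16.01. Of the enzymes of nucleotide supply, the ribonucleotide reductase genes Rrm2 and Rrm1 were at 42.4 and 17.5, and at 68.3 and 44.3, and the thymidine kinase gene Tk1 was at 44.5 and 16.9. The rescaled ratio was -1.06 for Pold1, -0.23 for Rrm1, and 0.17 for Pola1, so members of the list spread over more than 1 log2 unit. Their ratios also followed GC. Replication and mitosis members together had a median of 0.16 at up to 40% GC and -0.95 between 52% and 56%. Of the 50 G1/S members, 8 were above 0 after rescaling and 3 above the trend. The part of GC in the differences between these enzymes was not tested.

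The regulators of that programme were among the members. E2f1 was at 12.6 RPKM at week 4 and 5.11 at week 7 in B6, E2f2 at 16.5 and 6.25, and E2f8 at 7.06 and 2.63. All 3 had rescaled ratios between -0.89 and -0.77, and in NOD all were positive, at 0.37, 0.19 and 0.47. Dnmt1 and Uhrf1, which copy DNA methylation behind the fork, were at 79.0 and 30.9, and at 143.6 and 80.95, the latter with 42% shared reads. The highest member was Prim2, a primase subunit gene, at 22.4 and 21.3 with a rescaled ratio of 0.31. In all, 3 of 50 members (Cdt1, Pold1, Mcm5) were 2-fold lower after rescaling, where 0.618% of all genes were, and 21 were 1.5-fold lower, where 4.61% were. That second threshold was chosen after the values were seen. With the trend removed, 16 were 1.5-fold lower, where 2.08% were.

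Mitotic genes were low from entry to exit. Aurkb, the kinase of the chromosomal passenger complex, was at 19.99 RPKM at week 4 and 5.87 at week 7 in B6, and at 14.5 and 15.8 in NOD. Its deposited B6 ratio was 0.294 (0.253 to 0.341). Plk1, the polo kinase of mitotic entry, was at 16.4 and 4.83 in B6 and at 12.2 and 11.3 in NOD. Cdc20, an activator of the anaphase-promoting complex, was at 29.9 and 9.19 in B6, and Ube2c, the ubiquitin-conjugating enzyme of that complex, at 37.2 and 13.6. In NOD these 2 were at 28.0 and 26.9, and at 29.9 and 25.3. The B6 week 7 library was the lowest of the 4 for each of these kinases and ligase partners.

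Cyclins, the cohesin protease and condensins followed. Ccnb2 was at 35.4 RPKM and 13.4 in B6, Ccna2 at 27.1 and 13.7, and Espl1, which encodes separase, at 6.00 and 1.70. The condensin gene Ncapd2 was at 55.7 and 21.2, whereas Smc4, of the same complex, was at 97.0 and 134, a rescaled ratio of 0.85. The proliferation antigen gene Mki67 was at 45.1 and 24.4, and the topoisomerase gene Top2a at 70.1 and 45.7. Members at 2-fold lower numbered 4 of 46 (Aurkb, Cdc20, Plk1, Ube2c), where 0.618% of all genes were, and 15 were 1.5-fold lower, where 4.61% were, or 18 with the trend removed, where 2.08% were. Foxm1, the transcription factor gene of the mitotic programme, and Tubb5, a tubulin gene, were named after their values were seen. Foxm1 was at 10.5 and 3.42 and Tubb5 at 344 and 139 in B6, with rescaled ratios of -0.99 and -0.92.

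**Figure D2:**
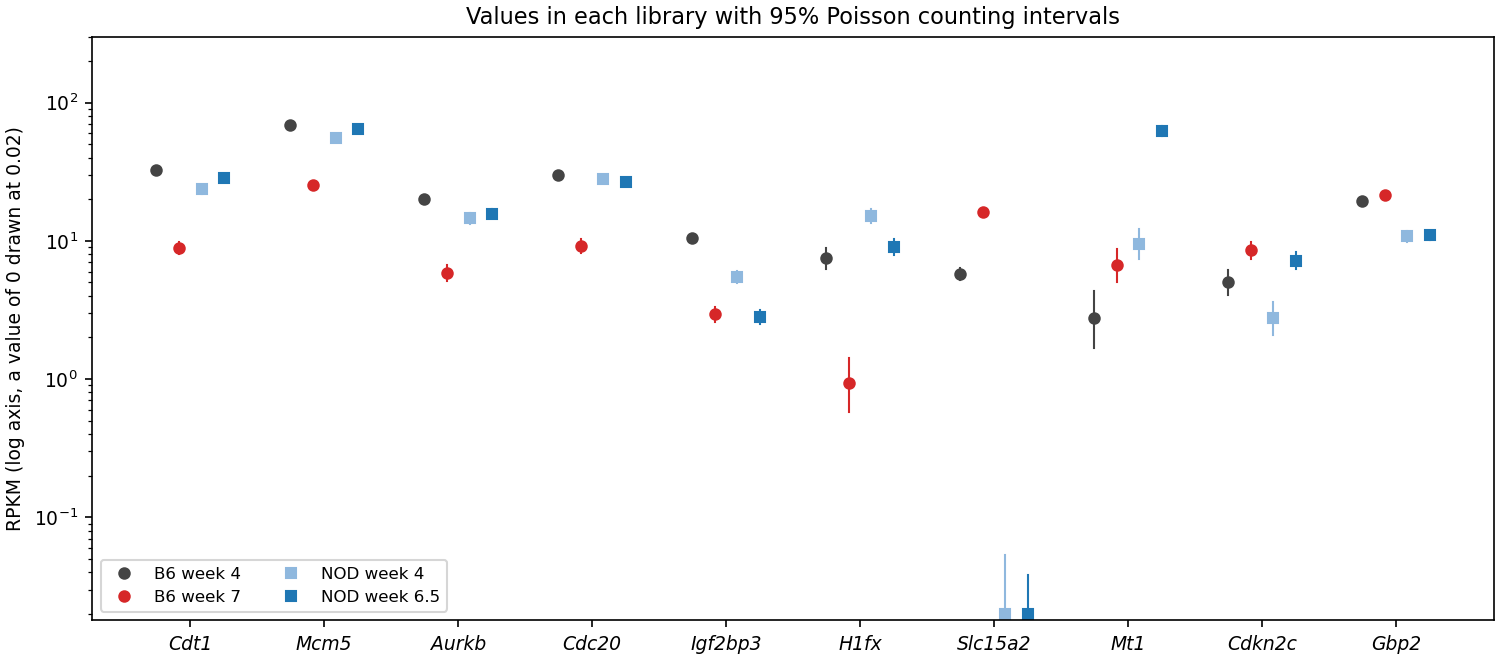
RPKM (y axis, log scale) of 10 genes in each of the 4 libraries, with 95% Poisson intervals that cover counting error only; a value of 0 is drawn at 0.02. Circles are B6 at week 4 and 7, squares are NOD at week 4 and 6.5. For Cdt1, Mcm5, Aurkb and Cdc20 the B6 week 7 point lies below the other 3, while Slc15a2 is listed at 0 in both NOD libraries.

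The low values of both lists were also set against all 4 libraries, each centred on its own median. B6 at week 7 was the lowest of the 4 for 33 of 51 G1/S genes and 26 of 46 G2/M genes, where it was the lowest for 37.1% of all genes. With the GC and length trend removed in each library, it was the lowest for 39 of 51 and 38 of 46, where it was for 30.4% of all genes. Within each GC bin the members also lay below the other genes: between 48% and 52% GC, 28 members had a median of -0.56 and 1589 other genes one of -0.042, and between 40% and 44% GC, 20 members had -0.067 and 1190 others 0.33. This count over the 4 libraries was added after the values were seen.

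The upstream sequence of both lists was searched for the elements named above. Windows of 300 bases around RefSeq starts (250 before, 50 after; build GRCm38.p6) were searched on both strands for the E2F words TTTCCCGC, TTTCGCGC, TTTGCCGC and TTTGGCGC and the CHR words TTTGAA and TTCGAA. An E2F word was found in 16 of 48 windows of G1/S genes (33.3%), and in 4.70% of the 8029 windows of genes at RPKM 5 or more in B6. A CHR word was found in 31 of 41 windows of G2/M genes (75.6%), and in 14.2% of the windows of those expressed genes. The table held 40 of the 50 G1/S and 39 of the 46 G2/M genes, some with several windows. The stretches printed belong to the lowest members of each list that met a rule, with matches in capitals. Members with 10% or more shared reads were passed over, as were those with no match lying, with its 40 flanking bases, outside annotated exons. They need not be the lowest of all members: Mcm6 had a rescaled ratio of -0.45, above the list median of -0.51. A match is a description of letters only, and E2F words can overlap, as in Mcm5.
Mcm5, chr8:75109320-75109407, plus strand: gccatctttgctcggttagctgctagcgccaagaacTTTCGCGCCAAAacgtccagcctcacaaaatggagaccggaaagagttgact
Mcm6, chr1:128359706-128359792, minus strand: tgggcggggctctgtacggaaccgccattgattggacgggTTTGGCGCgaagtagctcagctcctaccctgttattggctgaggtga
Ccnb2, chr9:70421676-70421761, minus strand: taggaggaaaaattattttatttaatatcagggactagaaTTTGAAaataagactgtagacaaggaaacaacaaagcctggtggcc
Bub1b, chr2:118597983-118598068, plus strand: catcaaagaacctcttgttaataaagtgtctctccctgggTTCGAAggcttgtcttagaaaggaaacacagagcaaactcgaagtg
Bub1b, the spindle checkpoint kinase gene, was at 23.7 RPKM at week 4 and 11.9 at week 7 in B6, and at 17.5 and 18.1 in NOD. The E2F match of Mcm6 begins 47 bases before its start, the nearer of the overlapping pair in Mcm5 149 bases before, and the CHR matches of Ccnb2 and Bub1b 167 and 188 bases before.

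Cell cycle regulators outside both lists were mixed, with a rescaled median of -0.20 over 15 members, or -0.17 from the trend. Of the 15, 11 lay below the trend, where 50% of all genes did. Cdkn2c, which encodes the CDK4 and CDK6 inhibitor p18, was at 5.04 RPKM at week 4 and 8.55 at week 7 in B6, and at 2.78 and 7.21 in NOD. The older library was the higher one in both strains, with rescaled ratios of 1.04 and 1.18, and in B6 the deposited ratio was 1.70 (1.32 to 2.19). Ccnd3, the D-type cyclin of thymocyte expansion, was at 58.9 and 27.5 in B6 and at 71.6 and 99.4 in NOD. Cdk2 was at 13.6 and 7.09, Cdk4 at 159.9 and 88.1, and Cdk6 at 104 and 107 in B6. Of 15 measured genes of this list, 1 was 2-fold higher (Cdkn2c), where 0.839% of all genes were. None was 2-fold lower, where 0.618% of all genes were.

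Replication-dependent histone genes had the lowest median of the lists with 5 or more measured members, at -1.15 over 11, and -0.68 with the trend removed. Hist1h2ao was at 131 RPKM at week 4 and 41.3 at week 7 in B6 and at 94.7 and 66.6 in NOD. Of the 11, 7 were 2-fold lower, where 0.618% of all genes were, but their shared reads ran from 82% (Hist1h2ac) to 100% (Hist1h2an, Hist1h2ao), and RNAs of this class mostly lack the tail on which the RNA was selected. Of histone genes with few shared reads, the only measured one of the list, Hist3h2a, was at 4.98 and 6.39 in B6. Outside the list, H1fx (H1f10), a linker histone gene, was at 7.46 and 0.93, and H2afx (H2ax), whose product marks DNA breaks, at 76.4 and 25.1. H1fx was also lower with age in NOD, at 15.1 and 9.07, and H2afx at 70.4 and 52.1.

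Of the metabolic lists, glycolysis stood lowest. Its genes had a median of -0.58 over 15 members, or -0.31 with the trend removed. Of the 15, 14 were below 0, where 50% of all genes were. Over the 6 members with under 10% shared reads the rescaled median was -0.36. The phosphofructokinase gene Pfkl was at 28.0 RPKM at week 4 and 12.6 at week 7, and the glucose transporter gene Slc2a1 at 5.21 and 2.54. Tpi1 and Gapdh were at 59.5 and 26.8, and at 26.4 and 11.4, with 44% and 59% shared reads. None of the 15 was 2-fold lower after rescaling, where 0.618% of all genes were. Oxidative phosphorylation genes stood at -0.14 over 73 members, ribosomal protein genes at -0.18 over 78, and proteasome genes at -0.08 over 31, all inside the quartiles of all genes, -0.26 and 0.26. From the trend these 3 lists stood at -0.11, -0.11 and -0.07.

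**Figure D3:**
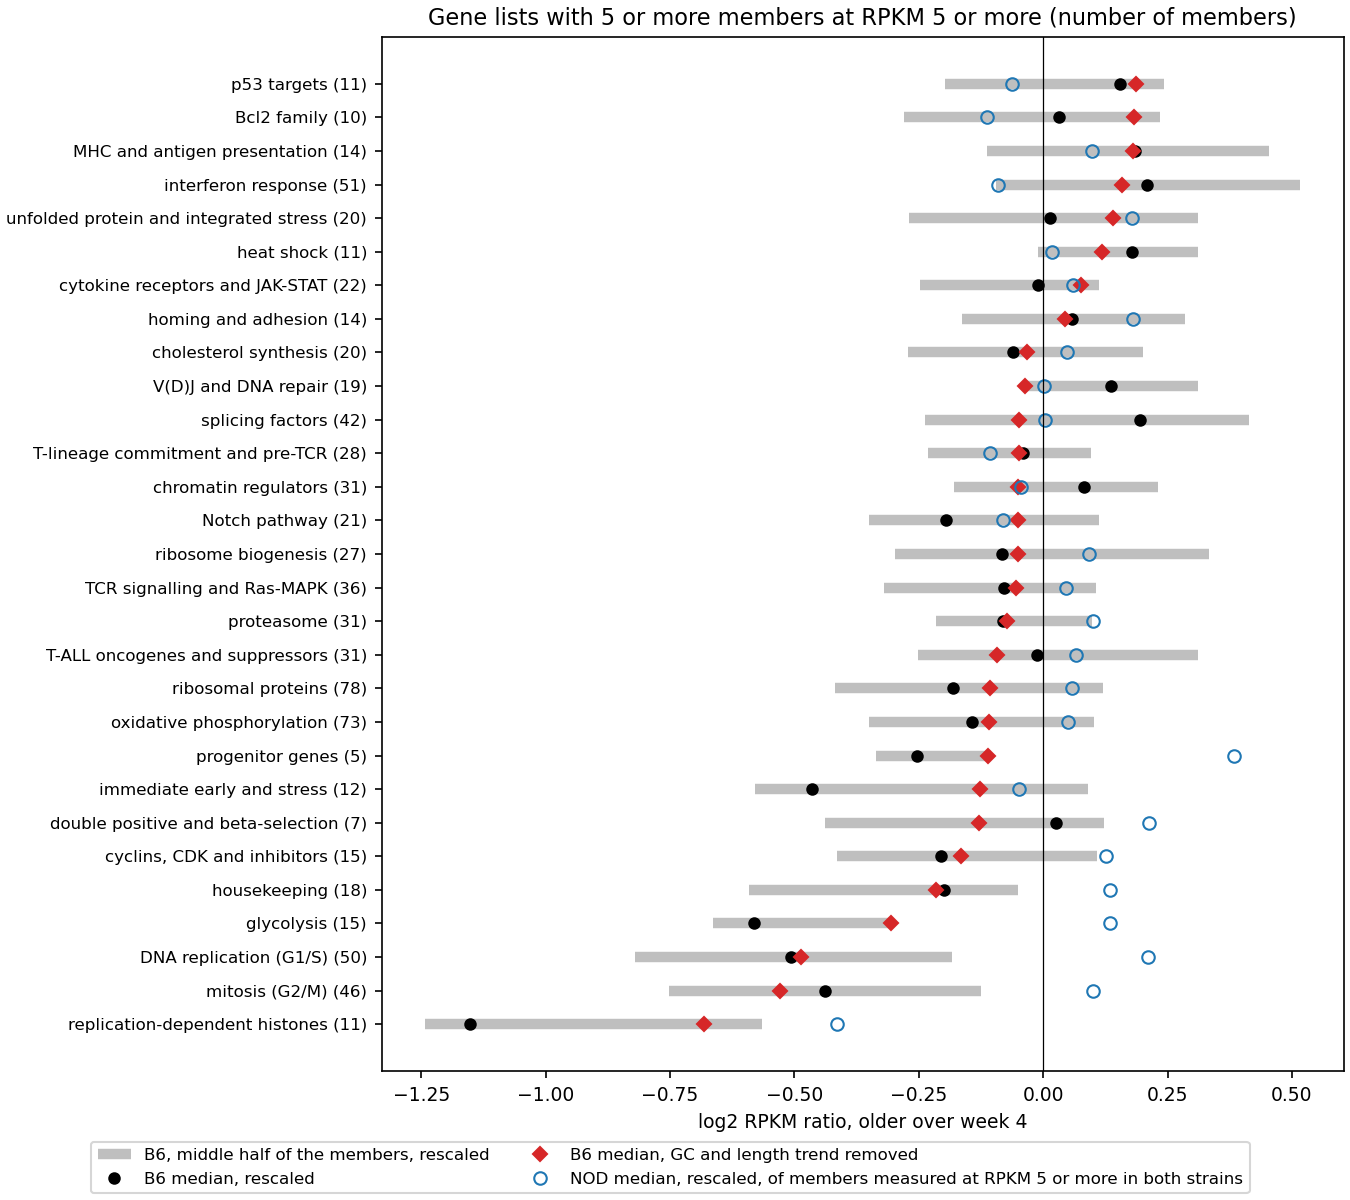
Median log2 RPKM ratio (x axis) of each gene list with 5 or more measured members (y axis, number of members in brackets). Grey bars run from the lower to the upper quartile of the B6 members, black points are B6 medians after rescaling, red diamonds the B6 medians once the trend was removed, and open blue circles the NOD medians of members measured in both strains. With the trend removed the histone, mitosis and replication lists sit lowest in B6, at -0.68, -0.53 and -0.49. After rescaling the glycolysis list, at -0.58, and the immediate early and stress list, at -0.47, lie between them.

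Interferon response genes stood slightly above the median gene at week 7, with the sign resting on the rescaling. Their median was 0.21 over 51 members, with 33 above 0 against 50% of all genes. As deposited the median was -0.17, that is, most members were lower in RPKM, but less so than the median gene. With the trend removed it was 0.16, and 40 of 51 lay above the trend. None was 2-fold higher, where 0.839% of all genes were. At 1.5-fold, 10 were higher, where 6.35% of all genes were, or 2 with the trend removed, where 1.14% were. In NOD the median of the 49 members measured in both strains was -0.09, with 10 above 0.

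The members with the highest ratios were GTPase genes of cell-autonomous defence, Iigp1 and Gbp6, followed by Sp100, Trim30 and Fbxo39 (Xaf1), at 0.66, 0.66 and 0.65. Iigp1 was at 6.86 RPKM at week 4 and 10.2 at week 7 in B6 and at 7.86 and 5.87 in NOD, and Gbp6 (Gbp7), a guanylate-binding gene, at 31.7 and 40.2 in B6 and at 37.6 and 27.8 in NOD. Of the other GTPase genes, Ifi47 was at 58.4 and 68.7 in B6, and Gbp2 at 19.3 and 21.4. Isgf3g (Irf9), a factor gene of interferon signalling, was nearer the middle, at 21.9 and 18.9. Some genes of antigen processing had ratios below 0: the peptide transporter gene Tap1 was at 63.6 and 34.5, and the immunoproteasome genes Psmb8 and Psmb9 at 347 and 216, and at 112 and 69.5. Their transcripts had 55.8%, 52.5% and 54.1% GC, against a median of 49.0% in the list, and Tap1, Psmb8 and Psmb9 lay at -0.20, -0.18 and -0.13 from the trend.

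The ISRE letters, GAAA followed by any 2 bases and GAAA, were found on either strand in 19 of 53 windows of these genes (35.8%), and in 3.10% of windows of genes at RPKM 5 or more. The windows belong to 40 of the 51 members. The stretches of the highest members that met the same rule follow, again from RefSeq with GRCm38.p6 coordinates and with the match in capitals. These need not be the highest of all members.
Gbp6, chr3:142530243-142530332, plus strand: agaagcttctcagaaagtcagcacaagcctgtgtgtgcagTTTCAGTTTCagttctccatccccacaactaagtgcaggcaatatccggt
Ifit1, chr19:34640764-34640853, plus strand: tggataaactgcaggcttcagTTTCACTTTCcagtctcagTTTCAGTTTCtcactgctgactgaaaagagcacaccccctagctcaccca
Ifit1, an inhibitor of foreign RNA translation, was at 5.03 RPKM at week 4 and 4.72 at week 7 in B6, a rescaled ratio of 0.30, and holds 2 matches in the stretch.

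The MHC list had a rescaled median of 0.18 over 14 measured genes, and 0.18 from the trend over the 13 with a GC value. In this list 2 non-classical class I genes were 2-fold higher, where 0.839% of all genes were. H2-Q6 was at 4.6 RPKM at week 4 and 13.5 at week 7, and H2-Q7 at 36.9 and 60.2, with up to 52% and 68% shared reads, so these values are uncertain. The classical genes H2-K1 and H2-D1 were at 321 and 236, and at 263 and 185. Their rescaled ratios were -0.06 and -0.13, or 0.18 and 0.17 from the trend. B2m, the light chain of all of them, was at 1319 and 1461, a ratio of 0.53, or 0.14 from the trend.

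The identity genes of the double negative stage differed little from the median gene. The 28 measured commitment and pre-T-cell receptor genes had a median of -0.04, or -0.05 from the trend. None was 2-fold different, where 0.839% of all genes were 2-fold higher and 0.618% lower, so that count says little about 28 genes. The largest ratio was that of E430004N04Rik (Themis), a signalling gene of developing thymocytes, at 57.7 RPKM and 82.9. Its rescaled ratio was 0.89, or 0.44 from the trend. The lowest were Spib at 17.4 and 8.01 and Zap70, the kinase of receptor signalling, at 10.3 and 4.82. From the trend none of the 28 was 1.5-fold different, where 1.14% of all genes were higher and 2.08% lower. Bcl11b, the commitment factor gene, was at 102 and 77.4, Tcf7 at 284 and 159.8 and Ptcra at 279 and 173. Notch pathway genes, which sustain this stage, had a median of -0.20 over 21 members and -0.05 from the trend, with Notch1 at 252 and 139.5, Dtx1 at 113 and 65.8 and the target gene Hes1 at 86.7 and 69.1.

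Progenitor genes, which are normally silenced at commitment, were mostly at low levels in B6. Of 20, 5 reached RPKM 5 in either library, with a median of -0.25, or -0.11 from the trend. None was 2-fold different, where 0.839% of all genes were 2-fold higher and 0.618% lower, so that count says little about 5 genes. Kit, the stem cell factor receptor gene, was at 7.62 RPKM and 4.25, Nfe2 at 19.5 and 12.2, Zfpm1, a GATA cofactor gene, at 9.94 and 3.37, Mycn at 10.8 and 7.40, and Erg at 17.99 and 20.2. Under RPKM 5, Lyl1 was at 3.84 and 1.47, Hhex at 1.69 and 0.64 and Lmo2 at 0.31 and 0.11, while Mef2c was at 0.84 and 2.14. In NOD the same 5 measured members had a median of 0.38, with Kit at 6.33 and 19.4. That median was the value of Erg, which was also above 0 in B6, at 0.54. The difference between the strains was not tested.

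Single genes outside these groups gave the widest ratios. After rescaling, 72 of 8582 genes were 2-fold higher (0.839%) and 53 were 2-fold lower (0.618%). As deposited the counts were 12 and 328. Reads shared between places were common in both sets: 38 of the 72 and 24 of the 53 had a share of 50% or more, against 15.0% of all genes. Among 6338 genes with under 10% shared reads, 24 were higher (0.379%) and 23 lower (0.363%). A GC value was at hand for 36.1% of the higher set, so a check of GC over that set is void; for the lower set it was 84.9%, with a median GC of 56% against 49.6% over all genes.

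The highest named gene with few shared reads was Slc15a2, a peptide transporter gene, at 5.78 RPKM at week 4 and 16.3 at week 7, a deposited ratio of 2.82 (2.52 to 3.17). It was listed at 0 in both NOD libraries. Mt1, which encodes the metal-binding protein metallothionein, was at 2.78 and 6.69 in B6 and at 9.53 and 62.5 in NOD. Its relative Mt2, under RPKM 5 in B6, was at 0.63 and 3.56, and at 3.75 and 36.4 in NOD. Rmrp, the RNA of a ribonuclease complex, was at 7.46 and 15.1 in B6 and at 8.42 and 2.72 in NOD. At a length of 0.275 kilobases it held only 35 and 88 reads in B6, and its deposited ratio was 2.02 (1.35 to 3.08). The unnamed or uncharacterised loci LOC100040862, LOC100043601, LOC100040151 (Gm2629), B430203M17Rik, 5830431A10Rik (Gm11346), AA467197 and 3110056K07Rik had rescaled ratios between 1.17 and 1.62.

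Eif2s3y and Ddx3y completed the 12 highest. Both lie on the Y chromosome, and were at 8.80 and 16.8 RPKM, and at 5.20 and 9.85, at week 4 and 7 in B6. Xist, the RNA that coats the silenced X of female cells, was at 100.05 and 119.8 in B6 and at 20.2 and 77.9 in NOD. From the trend the B6 ratios were 0.73 for Eif2s3y, 0.65 for Ddx3y and 0.14 for Xist, none of them 2-fold. Both kinds of transcript were thus present at each age, and the share of male and female cells cannot be told apart from a change of these genes. In NOD the Y-linked genes went the other way, at 34.3 and 15.0, and at 16.6 and 6.42.

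The 12 lowest genes with few shared reads, chosen from all genes, held several of the cell cycle. Beside Cdt1, Aurkb, H1fx and H2afx there were Pkmyt1, a kinase that restrains mitotic entry, at 12.8 RPKM at week 4 and 3.26 at week 7, Cdca5, which encodes the cohesin protector sororin, at 13.5 and 4.13, and 6720460F02Rik (Pimreg), a gene of the metaphase to anaphase transition, at 18.6 and 5.88. The others were LOC627695 at 26.0 and 1.98, the growth factor gene Pdgfa at 13.9 and 3.74, Nt5dc2 at 31.4 and 9.92, 2010001M09Rik (Mzb1), a chaperone gene of lymphocytes, at 64.0 and 21.0, and Igf2bp3. With the trend removed, 14 genes were 2-fold lower (0.183%) and 9 higher (0.118%) among 7654 with a GC value, and Igf2bp3 was the lowest with few shared reads, at -1.30, followed by Pmf1, a kinetochore gene, at -1.17. The highest by that measure with few shared reads was Rmrp, at 1.70, while H2-Q6, with up to 52% shared reads, was at 1.98.

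A small set of 19 genes with under 10% shared reads passed 1.5-fold in the same direction in both strains, a rule chosen after the values were seen. Of all such genes, 4.62% were 1.5-fold higher and 4.2% lower in B6, and 1.6% and 0.91% in NOD. Igf2bp3, an RNA-binding protein gene, was at 10.4 RPKM and 2.95 in B6 and at 5.46 and 2.83 in NOD. H19, an imprinted RNA gene, was at 720.3 and 364 in B6 and at 388 and 116 in NOD. With the trend removed its B6 ratio was -0.31, short of 1.5-fold. Short of it by that measure were also Cd53 (0.26), Gpr171, Tsix, Zfp428, Klc3, Rogdi, Tpte2 (Crlf2), Sh2b2 and Fbln2, and LOC100043003 had no GC value. Of the relatives of Igf2bp3, Igf2bp2 was at 1.54 and 1.56 in B6, and Igf2bp1 was listed at 0 at both ages. Among those higher with age were Mt1, Cdkn2c, the actin-severing gene Scin at 24.1 and 33.7 in B6 and 10.04 and 49.2 in NOD, the adaptor gene Lat2 at 5.37 and 6.72, and 3.46 and 14.6, and the tetraspanin gene Cd53 at 28.1 and 34.1, and 16.2 and 41.7. As deposited, each of these was higher in the older library of both strains.

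Over all genes the ratios of the strains were only weakly correlated, while their 1.5-fold sets overlapped in part. Of 455 genes 1.5-fold higher in B6 among the 8200 measured in both, 29 were also higher in NOD (6.37% of the B6 set, 20% of the 145 in NOD), and 7 were lower. Among all genes measured in NOD, 2.29% were 1.5-fold higher and 0.81% lower, and 0.775% and 0.139% passed 2-fold. Of 378 lower in B6, 14 were lower in NOD (3.70% of the B6 set, 23.3% of the 60 in NOD) and 6 were higher. Among all genes measured in B6, 6.35% were 1.5-fold higher and 4.61% lower. The same-direction overlaps were thus above the shares over all genes. The 7 and 6 in opposite directions were 11.7% of the NOD lower set and 4.14% of the NOD higher set. The 7 were thus also above the share over all genes, 6.35%, while the 6 were below theirs, 4.61%. An overlap above that share was therefore not limited to genes of the same direction. These overlaps were not counted with the trend removed. Spearman's rho across genes was 0.12 after rescaling and -0.12 over 7358 genes with the trend removed in each strain. For G1/S genes, 47 of the 49 members measured in both strains had a rescaled ratio above 0 in NOD, where 50% of all genes did, with a median of 0.21, where the B6 median of all 50 was -0.51. For G2/M genes, 28 of 40 were above 0 in NOD, with a median of 0.10.

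**Figure D4:**
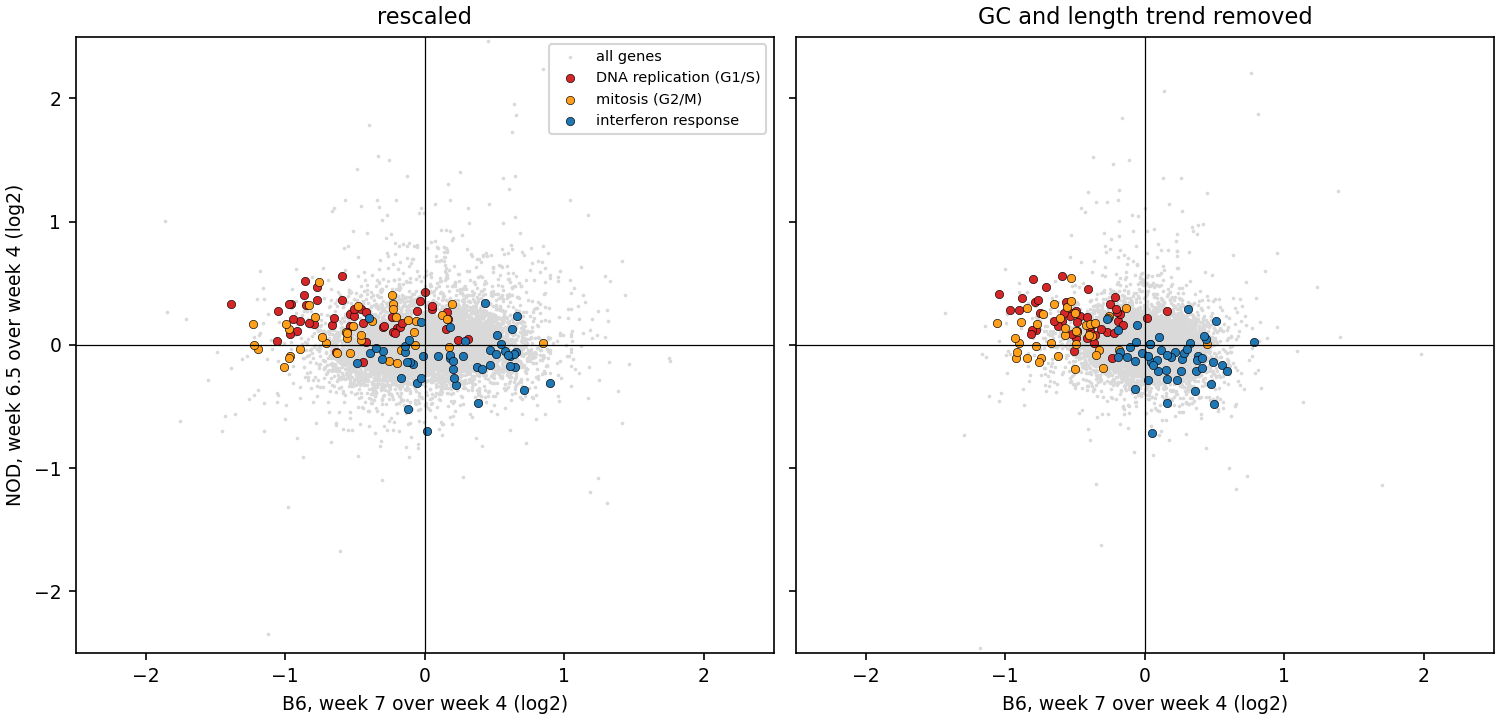
Log2 RPKM ratio of NOD, week 6.5 over week 4 (y axis), against that of B6, week 7 over week 4 (x axis), after rescaling (left) and once the trend with GC and length was taken out (right). Grey points are genes at RPKM 5 or more in both comparisons and coloured points are list members; 4 and 3 genes lie beyond the axes. Replication genes gather at negative B6 and positive NOD values, and interferon genes at positive B6 and slightly negative NOD values.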

How the data were processed

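The values were deposited by the authors as RPKM per gene. Per the file headers, each row also gives a gene length and the fraction of its reads that map to more than 1 place, deposited by the authors and called shared reads here. Per the submitters' processing notes, Bowtie 0.12.1 and build mm9 were used; the file names give 32-base reads. How reads were counted, and on which annotation, is not stated in those notes or in the labels. No step that keeps strand is described, so overlapping antisense genes cannot be told apart.

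The files were joined on Entrez identifiers (33114 genes). Regions without a gene name, and a list of mitochondrially encoded genes that matched no row, were left out. The pseudocount was 1, the minimum RPKM 5 in either library, and the fold threshold 2 (1.5 as an addition). GC content came from GENCODE transcripts of GRCm38. The trend was removed with lowess (statsmodels 0.14.6, fraction 0.3), first on GC and then on log2 length. Depth is the number of reads at which RPKM steps of genes of at most 0.6 kilobases fall within 0.1 of whole reads, which held for 100% and 99.7% of values in the B6 libraries (20% by chance). Intervals are 95% exact (Clopper-Pearson) for ratios and Poisson for single values; amplified reads are not independent molecules, so they cover counting error only. The 1 library per group allowed no test. The steps were tested on simulated data.

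Of 1143 entries in 40 gene lists 1105 were matched. Members, lists and thresholds were chosen with earlier results of these data known. Genes named are the 12 highest and 12 lowest with under 10% shared reads, the members of each list with the largest ratios, its defining members and the label checks; other genes named were chosen after their values were seen. Alternatives tried were the deposited scale, quantile normalization, trend removal, a pseudocount of 0.1, RPKM minimums of 1 and 20 or none, and genes with under 10% shared reads only.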

Additional observations from a re-analysis of the deposited data

Results flagged for a closer look

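Results that went in opposite directions with age in B6 and NOD are given here; none of these differences was tested, since each strain had 1 library per age. The G1/S list had a median rescaled ratio of -0.51 in B6 and 0.21 in NOD. The progenitor list, over 5 members, had -0.25 and 0.38, or -0.11 in B6 as distance from the GC and length trend. The 0.38 was the value of Erg, which was itself above 0 in both strains, at 0.54 in B6. The measured sex-linked genes (Xist, Ddx3y and Eif2s3y) had a median of 1.19 in B6, or 0.65 with the trend removed, and -1.08 in NOD. Xist itself was higher in the older library of both strains, at 0.64 and 1.95. Past 2-fold in both strains in opposite directions after rescaling were Eif2s3y at 1.24 and -1.08, Ddx3y at 1.19 and -1.19, Rmrp at 1.31 and -1.28, and EG435996 (Gm5735), whose reads were all shared with other places, at -1.86 and 1.01. With the trend removed, the B6 ratios of Eif2s3y and Ddx3y were 0.73 and 0.65, short of 2-fold, and that of Rmrp was 1.70. The Rmrp values rested on 35 and 88 reads in B6.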

How the results depend on the processing

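List medians were taken under 7 alternatives, and not for the setting without an RPKM minimum. The G1/S and G2/M medians were negative under each of the 7. That of the interferon list was positive under each except the deposited scale, where it was -0.17. On the deposited scale the G1/S, G2/M and progenitor medians were -0.89, -0.82 and -0.63, and 12 genes were 2-fold higher and 328 lower, where 72 and 53 were after rescaling. With the GC and length trend removed, 9 were higher and 14 lower, and the progenitor median was -0.11; 8 of those 9 and 11 of those 14 were among the 72 and 53. An RPKM minimum of 20 gave 29 higher and 23 lower and a G1/S median of -0.38, and left 1 progenitor gene, Erg, at 0.61. A minimum of 1 gave 88 lower, genes with under 10% shared reads alone, centred on their own median of -0.41, 27 higher and 20 lower (24 and 23 on the common centre), and no minimum 27 higher and 373 lower; the cause was not tested. Other values of these results stayed within 1.5 times for a count or 0.1 for a median. Of the 24 named genes 24 kept a 2-fold ratio with quantile normalization and with a pseudocount of 0.1, 17 on the deposited scale, and 9 of 18 with a GC value after trend removal; none changed sign. No paired analysis was possible because each group holds a single library. Depth limits single genes: the interval of Mt1, at 2.41, runs from 1.41 to 4.29. Because 1 library stands for each age, the spread between mice is unknown.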

Other observations

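Immediate early and stress genes had a rescaled median of -0.47 over 12 measured members in B6, with 8 below 0 where 50% of all genes were, or -0.13 from the GC and length trend. Junb and Jund1 (Jund), which encode AP-1 subunits, were at 12.1 RPKM and 4.76, and at 45.1 and 19.9, at week 4 and 7. Survival genes were mixed. Of 10 measured Bcl2 family genes, the pro-survival gene Bcl2 was at 14.6 RPKM at week 4 and 16.3 at week 7, a rescaled ratio of 0.53. Its relative Bcl2l1 was at 9.30 and 4.76, a ratio of -0.46. From the trend Bcl2 lay at 0.37 and Bcl2l1 at -0.17. The list median was 0.03, or 0.18 from the trend. Among p53 targets, Trp53inp1 was at 50.9 and 73.4, a ratio of 0.90. Cdkn1a, the p21 gene, was at 32.3 and 19.01, a ratio of -0.36, or -0.12 from the trend. The median of these targets was 0.15 over 11 members, or 0.19 from the trend. By that measure none of the 11 was 1.5-fold different, where 1.14% of all genes were higher and 2.08% lower. The heat shock genes Hsp90aa1 and Hsp90ab1 stood at 0.70 and -0.51, with 88% and 23% shared reads. The chemokine receptor gene Ccr9, which guides thymocytes, was at 10.5 and 16.1, a ratio of 0.95, and in NOD at 7.39 and 10.8. Selpl (Selplg), which encodes the P-selectin ligand of thymus seeding, was at 170.0 and 79.2 in B6 and at 126 and 137 in NOD.

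The inhibitory receptor gene Ctla4 was at 35.0 RPKM at week 4 and 44.8 at week 7 in B6, a ratio of 0.73, and at 8.13 and 4.05 in NOD. Sox13, a factor gene of the gamma-delta lineage, was at 24.4 and 9.24 in B6, a ratio of -0.93 or -0.51 from the trend, while Tcrg-V4 (Trgv4), a gamma chain segment with up to 48% shared reads, was at 433 and 497. Among amino acid transporters and enzymes, Slc7a5 was at 15.3 and 6.05 and Shmt2 at 45.3 and 17.9, with ratios of -0.83 and -0.92.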
